A study of Mus musculus with 8 samples.

Results

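Interferons are secreted proteins that switch on defence genes in neighbouring cells, and many of them are released after cells sense viral or other foreign nucleic acid. Type I interferons, which include Ifnk, Ifnb1 and Ifne, bind a receptor made of Ifnar1 and Ifnar2, and interferon gamma, the type II interferon, binds a receptor made of Ifngr1 and Ifngr2. In skin, interferon kappa (Ifnk) is known as the type I interferon that keratinocytes make. Il10rb is a shared chain that pairs with partner receptors for type III interferons, interleukin 10 and interleukin 22.

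The genes described here are 9 interferon ligands and receptor chains, taken by name (Ifnk, Ifnb1, Ifne, Ifng, Ifnar1, Ifnar2, Ifngr1, Ifngr2 and Il10rb) out of 20259 genes measured. The platform annotation gives them 12 rows of the array, and all 9 were measured. They were read in scars of early skin wounds in mice, with 4 arrays in each group. The low group is from a strain that regenerates hair follicles at a low level, the high group from one that does so at a high level. The array titles do not say how many mice an array stands for. The labels name neither the strains nor the age and sex of the mice nor the day after wounding, and no unwounded skin was analysed here. The comparison addressed which transcripts differ between scars of strains that form new hair follicles to different degrees.

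Values are log2 expression values from Affymetrix exon arrays, so a difference of 1 is a doubling of signal. Array medians over all 115830 rows lay between 6.09 and 6.29, and the number of arrays limits the precision. Markers of keratinocytes and fibroblasts, the main cells of skin, averaged 10.69 to 10.87 and 10.62 to 10.84 per array. Some arrays stood apart. Skeletal muscle markers averaged 9.76 (low 3) and 10.41 (low 4), with 6.82 to 7.0 elsewhere. Adipocyte markers averaged 8.14 and 8.21 in these arrays and 6.80 to 7.28 elsewhere. The Y-linked gene Eif2s3y lay at 7.57 to 7.70 in low 2, low 4 and high 4 against 4.08 to 4.76 in the others. Xist, an X-linked RNA of female cells, was at 6.11 in high 4, at 12.74 to 12.93 in the 5 arrays without Y-linked signal, and at 9.60 and 10.05 in low 2 and low 4, which thus carried both signals. In whole biopsies, fewer cells of a type and less RNA per cell cannot be told apart.

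Ifnk was the 1 member that passed the test, which does not show that the others were unchanged. It rose in high regeneration by 1.11 ± 0.15 (SE) on the log2 scale, a 2.15-fold rise (limma, adjusted p = 0.00777), and the other 8 members did not pass the test. A gene was called at a Benjamini-Hochberg adjusted p under 0.05 over all genes, which 4.32% of all genes reached. Of the 9 members 1 was higher and 0 lower, where 1.86% of all genes were called higher and 2.47% lower. At an unadjusted p under 0.05, 4 of the 9 members (Ifnk, Ifne, Ifnar2 and Il10rb) were higher, where 11.7% of all genes were.

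The promoters of Ifnk and of Ifnb1, the classical type I interferon gene, are shown because both encode ligands of the same receptor while 1 of the pair passed the test. Each window runs from 250 bases before to 50 bases after the annotated gene start, read 5′ to 3′ on the gene's strand, from RefSeq on GRCm38.p6 (C57BL/6J), at chr4:35151805-35152104 on the plus strand for Ifnk and chr4:88522745-88523044 on the minus strand for Ifnb1. Capitals mark matches to AANNGAAA, a core letter pattern of interferon regulatory factors, on either strand.
Ifnk: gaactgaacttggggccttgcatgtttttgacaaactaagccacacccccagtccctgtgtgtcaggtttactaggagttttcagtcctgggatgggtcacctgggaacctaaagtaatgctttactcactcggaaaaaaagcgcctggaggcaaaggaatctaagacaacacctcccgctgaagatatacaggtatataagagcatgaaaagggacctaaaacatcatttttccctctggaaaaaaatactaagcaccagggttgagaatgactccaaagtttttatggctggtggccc
Ifnb1: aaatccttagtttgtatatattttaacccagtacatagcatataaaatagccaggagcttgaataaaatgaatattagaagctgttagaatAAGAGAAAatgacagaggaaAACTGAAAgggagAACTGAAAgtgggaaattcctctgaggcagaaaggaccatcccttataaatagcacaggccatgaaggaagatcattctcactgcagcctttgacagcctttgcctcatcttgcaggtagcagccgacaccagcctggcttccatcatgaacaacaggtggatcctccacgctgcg

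The Ifnb1 window held 3 matches, at -159 to -152, -139 to -132 and -126 to -119 from the gene start, and the Ifnk window held 0. Of all 32851 promoter windows, 23.9% held at least 1. It also matched in Ifne and Ifng. TTCNNNGAA, the gamma-activated site, matched in Ifne, Ifng, Ifnar1 and Ifnar2, and in 8.30% of all windows. TGANTCA, the AP-1 site, matched in 0 of the 8 member promoters of the table, and in 7.81% of all windows. The 3 patterns were searched on both strands. A match is a run of letters in a reference sequence and was not set against binding or against the sequence of the strains studied.

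Among the ligands, Ifnk lay at 4.70, 5.20, 4.86 and 5.06 in low 1 to low 4. In high 1 to high 4 it lay at 5.91, 5.89, 5.98 and 6.46. All 4 high arrays were above all 4 low arrays, and high 4 was the highest. The group means were 4.95 ± 0.22 (SD, n = 4) and 6.06 ± 0.27. Ifnk was a low signal on this array. It lay 1.21 ± 0.23 (SD) below the array median in low regeneration and 0.17 ± 0.30 below it in high regeneration, where only high 4 was above the median, by 0.28. Among all genes its mean level rose from the percentile 8.27 to the percentile 22.6. No detection call was used, so how much of the low-group signal is background is not known.

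**Figure D1:**
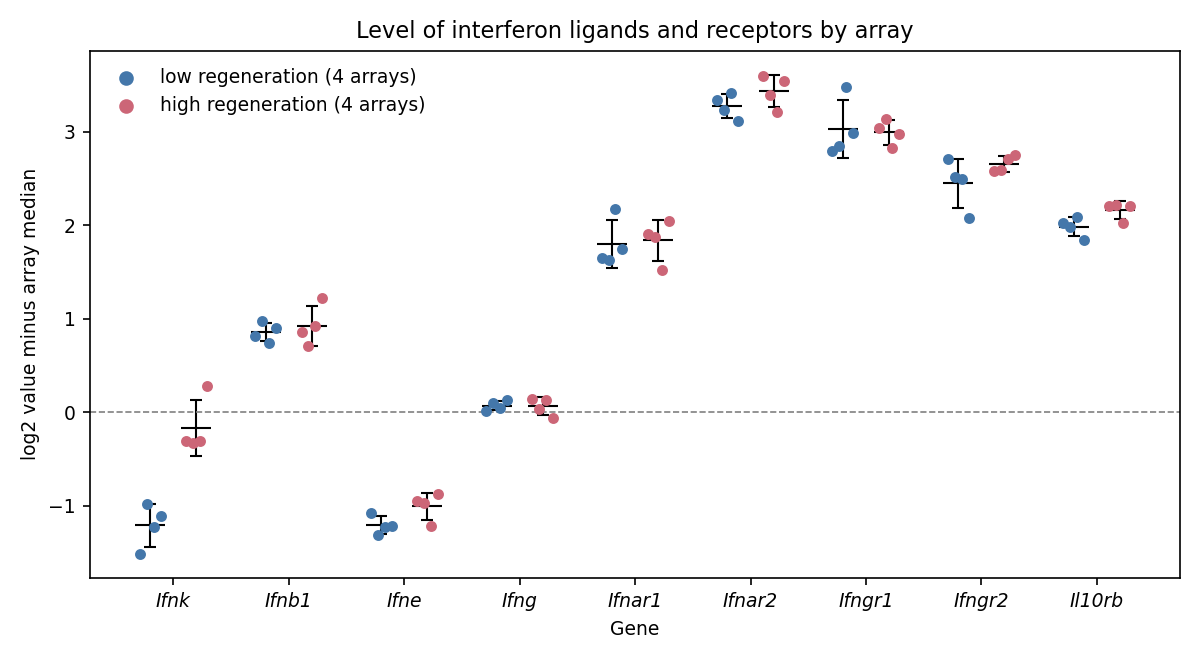
Log2 value minus the median of all rows of its array (y axis) for the 9 genes (x axis). The 4 low-regeneration arrays are in blue and the 4 high-regeneration arrays in red, with the mean and SD in black. Ifnk is separated between the groups and stays near or below the array median, whereas the receptor chains lie 1.53 to 3.59 above it and their groups overlap on this scale. Levels of different genes are read by different probes and are not ranked.

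With each array left out in turn, Ifnk was higher by 0.97 to 1.19 and passed each time. Without high 4 it was 0.97 ± 0.12 (SE, adjusted p = 0.0121), and without the muscle-rich low 3 and low 4 it was 1.11 ± 0.20 (adjusted p = 0.0456). Without low 2, low 4 and high 4, the arrays with Y-linked signal, it was 1.15 ± 0.10 (adjusted p = 0.0345). In that comparison of 2 against 3 arrays, 15 of 20259 genes passed, and Ifnk was 1 of the 5 higher ones. The keratinocyte markers, from the cells known to make Ifnk, ranged from 10.79 to 10.87 in low and from 10.69 to 10.82 in high regeneration. Of the 10 markers 0 were called higher and 1 lower, the basal integrin Itga6, where 2.47% of all genes were called lower. The average hides changes in both directions, with 6 estimates positive and 4 negative. Krt15 and Trp63 were at -0.74 and -0.24, and Krt14 and Krt1 at 0.38 and 0.14, all without passing.

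**Figure D2:**
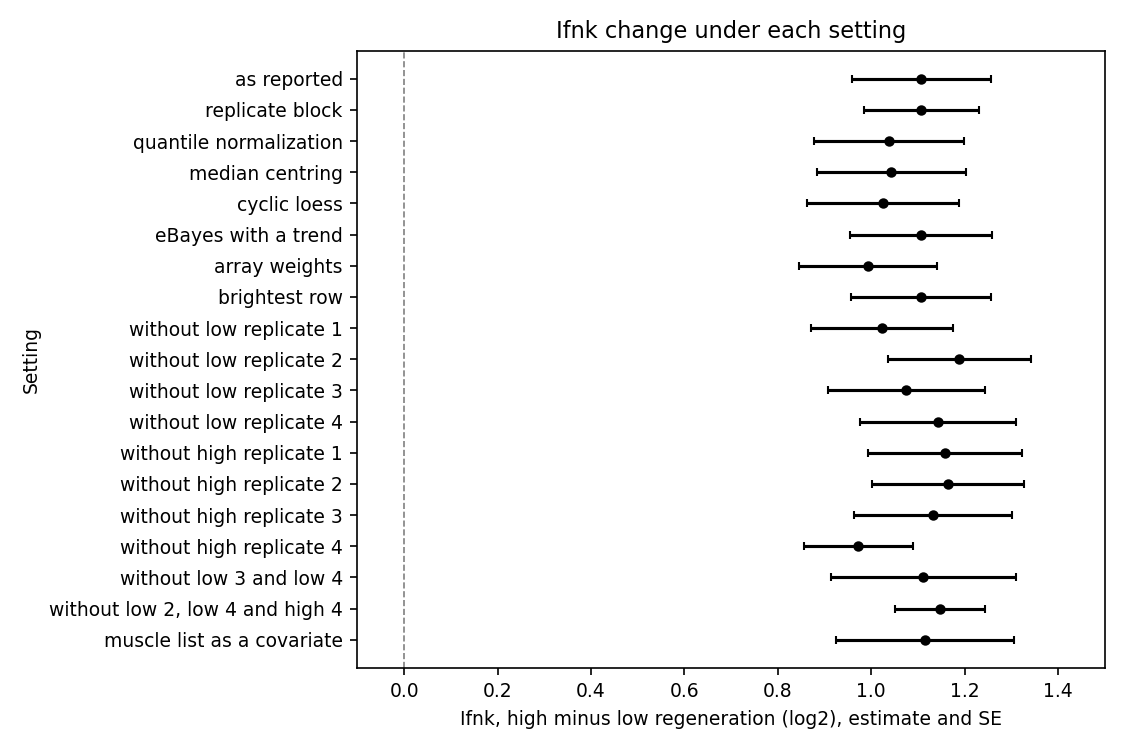
Log2 change of Ifnk, high minus low regeneration (x axis, estimate and SE), as reported and under 18 alternative settings (y axis). The estimates lie between 0.97 and 1.19.

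The other ligands did not pass the test. Ifnb1, the interferon beta that many cell types release early in infection, had a mean of 7.02 ± 0.14 (SD, n = 4) in the low arrays and 7.15 ± 0.20 in the high arrays. Its difference was 0.13 with a 95% interval of -0.12 to 0.38 (limma, adjusted p = 0.504), and the groups overlapped. Within each array, Ifnk minus Ifnb1 lay between -2.33 and -1.95 in the low group and between -1.23 and -0.94 in the high group. The same difference taken against each of the remaining members in turn did not overlap between the groups either. All these differences hold the same Ifnk values, so they are not separate results. Ifnk was singled out after its values were seen, so this is a description without a test.

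Ifne, interferon epsilon, known for its steady expression in the epithelium of the female reproductive tract, lay at 5.14, 4.87, 4.86 and 4.95 in the low arrays and 5.26, 5.25, 5.08 and 5.30 in the high arrays. High 3 was the array that fell within the low range. The difference was 0.27 ± 0.08 (SE, limma adjusted p = 0.102), and without low 1 it was 0.33 ± 0.07 (adjusted p = 0.0411). Ifne lay 1.21 below the array median in low and 1.00 below it in high regeneration, so its signal was low in both groups.

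Ifng, interferon gamma, the product of activated T cells and natural killer cells, lay between 0.06 below and 0.15 above the median of all rows of its array. Most of those rows have no gene, and among genes its mean was at the percentile 26.7 in low and 27.0 in high regeneration. Its values were 6.13 to 6.30 in low and 6.12 to 6.43 in high regeneration. The difference was 0.06 with a 95% interval of -0.12 to 0.23 (limma, adjusted p = 0.693), and its sign turned with quantile normalization, median centring and cyclic loess. Markers of T and natural killer cells averaged 6.89 to 6.99 per array in the low group and 6.90 to 7.25 in the high group. Of these, 1 of 12 was called higher, the T helper coreceptor Cd4, where 1.86% of all genes were. The median change of the 12 was 0.07, with 9 estimates positive and 3 negative. The T cell genes Cd3e, Cd3d and Cd3g had changes of 0.08, 0.15 and -0.15, all without passing.

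The genes of the alpha interferons, Ifnz and the type III receptor chain Ifnlr1 had a row of their own for 6 of 21 listed genes. None of these 6 passed the test in either direction, where 4.32% of all genes did, and their differences were -0.08 to 0.22. The alpha interferon Ifna4 lay at 4.02 and 3.98, and Ifna14 at 5.93 and 6.11, in low and high regeneration.

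**Figure D3:**
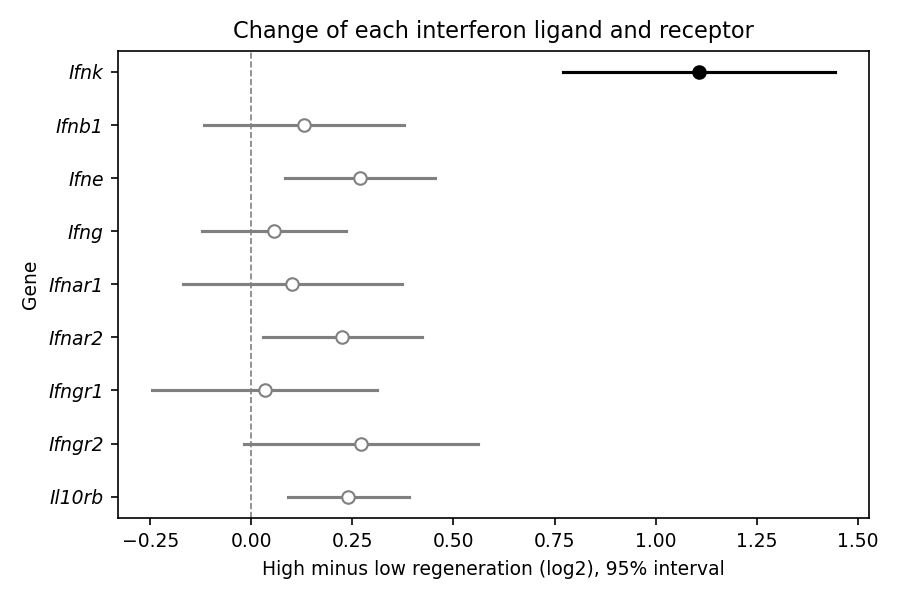
High minus low regeneration on the log2 scale with its 95% interval (x axis) for each gene (y axis), with a filled point for an adjusted p under 0.05. Ifnk has an interval of 0.77 to 1.44, and the upper ends of the other 8 intervals lie between 0.23 and 0.56.

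Among the type I receptor chains, Ifnar2, the chain that binds the ligand with high affinity, lay at 9.56, 9.41, 9.50 and 9.29 in low 1 to low 4. In high 1 to high 4 it lay at 9.81, 9.62, 9.50 and 9.73. High 3 fell within the low range. The difference was 0.23 ± 0.09 (SE, limma adjusted p = 0.177), with a 95% interval of 0.03 to 0.42. Ifnar1, the signalling partner, was read by 3 rows and lay at 7.96 ± 0.21 (SD, n = 4) and 8.07 ± 0.18. Its difference was 0.10 with a 95% interval of -0.17 to 0.37 (adjusted p = 0.641). The 3 rows had differences of 0.09, 0.02 and 0.19, and in the row with 0.02 low 3 stood at 7.82 against 6.60 to 6.86 in the other low arrays.

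Among the interferon gamma receptor chains, Ifngr1, which binds the ligand, had a mean of 9.19 ± 0.26 (SD, n = 4) in the low arrays and 9.22 ± 0.11 in the high arrays. The difference was 0.03 with a 95% interval of -0.24 to 0.31 (limma, adjusted p = 0.895). Its sign turned in 5 of 19 alternatives, among them median centring. Low 3, at 9.56, was the highest array. Ifngr2, the chain that couples the receptor to Jak2, lay at 8.92, 8.69, 8.59 and 8.25 in the low arrays and 8.80, 8.81, 9.0 and 8.93 in the high arrays. Its difference of 0.27 ± 0.13 (SE, adjusted p = 0.254) came from rows that disagreed in size, 0.05 in the brighter row near 10.3 and 0.49 in the dimmer row. In the dimmer row low 4 was the lowest, at 6.19, and without low 3 and low 4 the Ifngr2 difference was 0.08 (adjusted p = 0.749).

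Il10rb lay at 8.24, 8.16, 8.18 and 8.02 in low 1 to low 4 and at 8.42, 8.44, 8.31 and 8.39 in high 1 to high 4. Every high array was above every low array. Relative to the median of all rows the groups overlapped, at 1.85 to 2.09 and 2.02 to 2.22, and relative to the median of the genes they did not, at 0.69 to 0.94 and 1.02 to 1.14. The difference of 0.24 ± 0.07 (SE), 1.18-fold, did not pass after adjustment (limma, adjusted p = 0.0779). Ifnk and Il10rb were thus the 2 of 9 members whose groups did not overlap, with 7.19% of all genes separated in this direction and 7.29% in the other. Without low 3 and low 4 the Il10rb difference was 0.19 (adjusted p = 0.266).

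All 9 members had positive estimates as deposited, with a median change of 0.23 against 0.03 over all genes, where 57.2% of estimates were positive. After median centring 7 of 9 were positive, and after quantile normalization or cyclic loess 8 of 9. Across the receptor chains, every array lay 1.53 to 3.59 above its median of all rows, most of which have no gene. Relative to the median of the genes, the chains lay 0.51 to 2.51 above.

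Ifnar2, Il10rb, Ifnar1 and Ifngr2 follow each other in this order on mouse chromosome 16, between Olig1 and Tmem50b. Of the listed genes beside them on this chromosome, 0 of 9 measured were called in either direction, where 4.32% of all genes were. Their median change was -0.02, with 3 estimates above 0 and 6 below. The remaining listed gene, Cryzl2, lies on chromosome 1 and was not called either. Tmem50b, the next gene after Ifngr2, was at 10.3 and 10.5 in low and high regeneration, a difference of 0.21 that did not pass (limma, adjusted p = 0.131). Its groups did not overlap, where 7.19% of all genes were separated in this direction. Ifnb1 and Ifne lie in the interferon cluster of chromosome 4, and Ifnk lies apart from it on the same chromosome, between Mob3b and C9orf72.

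Downstream of the receptors, the factors that join into the complex of type I signalling rose and the kinases did not pass. Of 6 measured genes of the chain, 2 were higher and 0 lower, where 1.86% of all genes were called higher. Stat2 rose by 0.78 ± 0.13 (SE, limma adjusted p = 0.0144), from 8.90, 8.65, 8.69 and 8.33 in the low arrays to 9.64, 9.42, 9.45 and 9.20 in the high arrays. Irf9, the DNA-binding partner of Stat2, rose by 0.70 ± 0.10 (adjusted p = 0.0112). The receptor-bound kinases Jak1, Jak2 and Tyk2 had differences of 0.11, 0.03 and 0.04, and Stat3 of 0.10. The median change of the chain was 0.10. With the muscle markers as a covariate, or without low 3 and low 4, 1 of the 6 was called, Irf9. Without low 2, low 4 and high 4, 0 were.

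Of 10 inhibitors of interferon signalling, 1 was higher and 0 lower, with a median change of 0.15. Over all genes 1.86% were called higher and the median change was 0.03. The called gene was Usp18, which binds Ifnar2 and blocks the receptor and is itself interferon-induced. It rose by 1.60 ± 0.18 (SE, limma adjusted p = 0.00402). The suppressors Socs1 and Socs3 had differences of 0.18 and 0.34 (adjusted p of 0.294 and 0.151).

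Of 13 measured genes that lead to interferon production, 2 were higher and 0 lower, with a median change of 0.19. The values over all genes were 1.86% called higher and a median of 0.03. Irf7, the factor that drives the alpha interferon genes, rose by 0.89 ± 0.15 (SE, limma adjusted p = 0.0144), and Irf8, a factor of myeloid and dendritic cells, by 0.49 ± 0.07 (adjusted p = 0.0109). Irf3, which acts with viral sensors to start Ifnb1, was at 8.81 and 8.78 in low and high regeneration. With the muscle markers as a covariate 1 of the 13 was called, and without low 2, low 4 and high 4, 0 were.

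Among 10 measured ligands and receptor chains of the interleukin 10 family, 1 was higher and 0 lower, with a median change of 0.07. Over all genes 1.86% were called higher, with a median of 0.03. Il10ra, the partner of Il10rb in the interleukin 10 receptor, rose by 0.58 ± 0.09 (SE, limma adjusted p = 0.0109). It lay at 8.28, 8.0, 8.28 and 8.23 in the low arrays and 8.79, 8.89, 8.79 and 8.62 in the high arrays, with no overlap. Without low 2, low 4 and high 4 the Il10ra difference was 0.55 and did not pass (adjusted p = 0.149). Il22ra1, the partner of Il10rb in the interleukin 22 receptor of epithelia, was 0.26 higher without passing (adjusted p = 0.218), and Il10 itself was at 6.38 and 6.41.

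**Figure D4:**
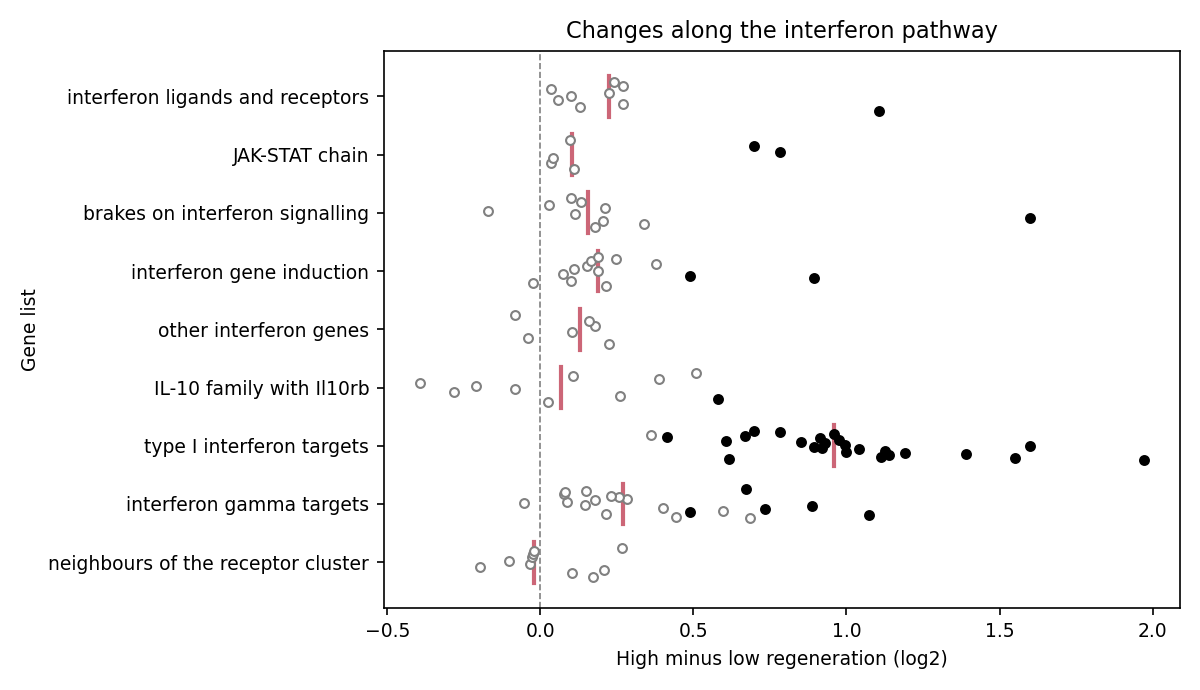
High minus low regeneration on the log2 scale (x axis) for each measured gene of each list (y axis), with filled points for an adjusted p under 0.05 and a red bar at the list median. Called genes are 24 of 25 type I targets, 5 of 20 interferon gamma targets and 1 of the 9 ligands and receptors, against 4.32% of all genes.

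The genes that type I interferon is known to induce were higher in 24 of 25 measured cases and lower in 0. Their median change was 0.96, and 1.86% of all genes were called higher. Ifit3 rose by 1.55, Ifit1 by 1.97, Mx2 by 1.14 and Xaf1 by 0.92. Without low 2, low 4 and high 4, 3 of the 25 were called, at a median of 0.90. The list holds Stat2, Irf9, Usp18 and Irf7, named above. Interferon-induced genes were already known to be higher in these arrays when the list was written, so its count is no independent evidence of direction.

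Genes better known as targets of interferon gamma were higher in 5 of 20 measured cases and lower in 0, with a median change of 0.27. Over all genes 1.86% were called higher, with a median of 0.03. Irgm1 rose by 0.89 ± 0.10 (SE, limma adjusted p = 0.00364), the antibody receptor Fcgr1 by 0.67, the chemokine Cxcl11 by 1.07, Gbp3 by 0.73 and Irf8 as above. Gbp3 passed in 11 of 19 alternatives and lost its call without low 2, low 3, low 4 or high 4, at differences of 0.75, 0.76, 0.65 and 0.69. Type I interferon also induces several of these genes. The chemokine Cxcl9 was 0.68 higher without passing (adjusted p = 0.313), and Ido1 was at 5.85 and 5.79 in low and high regeneration. The class II genes H2-Aa and H2-Ab1 were 0.08 and 0.15 higher without passing. Without low 3 and low 4, or with the muscle markers as a covariate, 3 of the 20 were called. Without low 2, low 4 and high 4, 0 were called. The difference between the lists was not tested.

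Within a group, the array with the most Ifnk was not the array with the highest type I targets. High 4 had the highest Ifnk, at 6.46, and a mean of 9.05 over the targets, against 9.02 to 9.29 in the high group. Low 1 had the lowest Ifnk, at 4.70, and the highest mean of the low group, 8.33. These orders rest on 4 arrays per group and on a low Ifnk signal that may be partly background. A link between Ifnk and the targets was not tested.

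Markers of plasmacytoid dendritic cells, known as strong producers of alpha interferons, were higher in 3 of 8 cases and lower in 0. Among all genes 1.86% were called higher. The list averaged 7.72 to 8.01 per array in the low group and 8.22 to 8.25 in the high group. The surface lectin Siglech, a marker of these cells in the mouse, was at 6.27, 6.14, 6.50 and 6.64 in the low arrays and 7.38, 7.18, 7.06 and 7.07 in the high arrays. Spib and Bst2 were the other called members, and Bst2 is also interferon-induced. Ly6d, Ccr9, Pacsin1 and Tcf4 had changes of 0.26, 0.24, 0.16 and 0.12 and Cox6a2 of -0.19, all without passing. Ly6d, at 11.9 and 12.2 in low and high regeneration, is part of the list average. Macrophage markers averaged 9.28 to 9.62 in the low group and 9.41 to 9.60 in the high group. Of the 9, 0 were called, against 4.32% of all genes. This average hides changes in both directions, with 7 estimates positive and 2 negative. Mrc1 was at -0.68 and C1qc at 0.21, without passing (limma, adjusted p of 0.0819 and 0.139). The groups of both did not overlap, where 7.29% of all genes were separated lower and 7.19% higher. The part of these cells in the changes above was not tested.

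Leaving out predicted gene models, the genes whose profile over the 8 arrays lay nearest to that of Ifnk were Irf7, Klk13 and Dtx3l. The mean absolute difference between their deviations from their own means was 0.20, 0.22 and 0.22 on the log2 scale, where the median over 20258 genes was 0.54. Klk13, a kallikrein protease of stratified epithelia, rose by 0.72 ± 0.16 (SE, limma adjusted p = 0.0388), and like Ifnk it was highest in high 4, at 10.46. It passed in 8 of 19 alternatives, and without high 4 its adjusted p was 0.0618. Dtx3l, a ubiquitin ligase and partner of Parp9, rose by 0.71 ± 0.07 (adjusted p = 0.0027). Likeness over 8 arrays in 2 groups largely reflects a group difference of like size.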

How the data were processed

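The authors deposited log2 expression values per transcript cluster for 8 arrays, and Affymetrix Expression Console and PLIER, which combines the probes of a set, are named in the submitters' processing notes without versions. The sources used here do not state the background correction or how arrays were normalized. The log2 scale was inferred from the range of the values. Of 115830 rows, the platform annotation pairs 25539 with 1 gene, 2300 with several and 87991 with none. Rows with 1 gene were averaged per gene (20259 genes), without a filter on low values.

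High minus low regeneration was tested with limma 3.58.1 in R 4.3.3 (lmFit, eBayes), two-sided, with Benjamini-Hochberg adjustment over all genes, and the procedure was tested on simulated data. The 9 genes, the lists and the alternatives were chosen with earlier results of these data known. Named genes are the 9 members, up to 5 called genes of each list in each direction by p, and the 3 annotated genes nearest in profile to a called member. Other genes were named after their values were seen. List counts have no set test. The alternatives were a replicate block, other scalings, variance models, a filter at the 25th percentile, the brightest row, leaving out arrays, and a muscle covariate. Promoters come from RefSeq (GRCm38.p6), for 8 of 9 members.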

Additional observations from a re-analysis of the deposited data

Results flagged for a closer look

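Ifnk in high 4, at 6.46, lay apart from the 5.89 to 5.98 of the other high arrays, and the rise of Ifnk without high 4 is given above. High 4 also carried Y-linked signal, and the part of sex in this value was not tested. Gbp3 in low 4, at 8.29, lay below the 8.60 to 8.64 of the other low arrays. Without low 4 the Gbp3 difference was 0.65 and did not pass (limma, adjusted p = 0.0635). These were 2 of 50 groups of 4 arrays examined for 25 named genes, and chance flags about 1 in 20.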

How the results depend on the processing

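Ifnk was higher and passed the test in all 18 alternatives that held it, with changes of 0.97 to 1.19 and adjusted p of 0.00646 to 0.0456. It is read by 1 row of the array, so the brightest-row setting kept its values and no setting compared rows for it. The filter at the 25th percentile removed Ifnk and Ifne, and 0 of the 7 members it kept were called. With array weights 3 members were called (Ifne and Il10rb joined Ifnk), and leaving out 1 array gave 1 to 2. The sign turned for members near 0. Ifng was at -0.0056 with quantile normalization, -0.0078 with median centring and -0.0175 with cyclic loess. Ifngr1 was at -0.0315 with median centring, -0.0281 to 0.157 with 1 array left out (below 0 without low 1, low 2 or high 2) and -0.0408 without low 2, low 4 and high 4, where Ifnar1 was at -0.056. The cause was not tested.

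Of 20259 genes 876 were called, against 292 to 1205 with 1 array left out, 325 without low 3 and low 4, 15 without low 2, low 4 and high 4 (2 against 3 arrays) and 335 with the muscle covariate. The share of higher calls was lower after median centring (212 higher, 593 lower) and cyclic loess (291 and 628) than as deposited (376 and 500). Without low 2, low 4 and high 4, 0 genes of the chain, of interferon induction, of the interleukin 10 family and of the gamma targets were called, and 3 type I targets. Without low 3 and low 4, 1 gene of the chain and 3 gamma targets were called, and with the muscle covariate 1 of the chain, 1 of induction and 3 gamma targets. Array weights gave 4 of induction. Leaving out 1 array gave 0 to 1 of the other interferon genes.

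With the replicate number as a block 239 genes were called, with 1 of induction, 0 of the interleukin 10 family and 3 gamma targets, and Ifnk passed. Arrays of the same number did not deviate together (correlations of -0.26 to 0.02), so the numbers are not taken as pairs.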

Other observations

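Rows that the annotation gives to an alpha interferon gene together with other genes, mostly further alpha interferons, were left out of the gene-level comparison. In these 9 rows the group means lay between 4.96 and 6.95, and high minus low ran from -0.04 to 0.22 with a median of 0.15. The difference was positive in 8 of the 9 rows and the groups overlapped in all 9. The 2 rows shared by the type III interferons Ifnl2 and Ifnl3 had differences of -0.02 and 0.04 and also overlapped.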
